A study of Saccharomyces cerevisiae with 27 samples.

Results

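In a study of replicative ageing in the budding yeast Saccharomyces cerevisiae, 6 arrays set RNA of mother cells 8 generations old against RNA of young control cells. They were taken by the age in their titles, from 27 arrays in all, and every gene was read on them as log2 of the signal of 8-generation cells over that of young cells. The strain background was wild type W303, the aged and young cells carrying the same genotype, and the wording of the series leaves it unclear whether the a mating type or an unnamed one is meant. Per the labels, the young control cells were 1 generation old and matched to the aged sample in conditions, magnetic beads served to sort the cells, which stayed in log phase, and the other arrays held 12-generation cells (7 arrays), 18-20-generation cells (7) and, as the background of the assay, young cells in both channels (1 generation, 7). RNA of the 8-generation cells was in the Cy3 channel on arrays 1, 2, 3 and 6 and in the Cy5 channel on arrays 4 and 5.

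A budding yeast cell divides unequally, and the mother can be told from its daughter by the scars that earlier buds leave on its wall. Replicative age is the number of daughters that a mother has produced, and mothers stop dividing after a limited number. Old mothers are known for an unstable ribosomal DNA, weakened silencing of the mating type cassettes, and changes of vacuole and mitochondria, and the Ras, protein kinase A and TOR pathways, which couple growth to nutrients, are known to alter life span. Fewer cells of a kind and less RNA per cell cannot be told apart in RNA from a whole culture.

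The direction of array 1 is not settled. Its labels put the aged RNA in the same dye as arrays 2 and 3, and yet it correlated with them at r = -0.643 (5686 genes) and -0.58 (5691 genes), and with array 4, of the opposite dye, at -0.661 (5659 genes). Arrays 2 and 3 correlated with each other at 0.823 (5712 genes), and with array 4 at 0.373 and 0.508. Arrays 5 and 6 stood apart from all of these, with r between -0.143 and 0.164 in their pairs with arrays 2, 3 and 4, and 0.0269 with each other. These correlations run over genes of 1 pair of arrays and are descriptions. Array 3 is labelled as dye-inverted in its title and channels but not in its description. Arrays 1, 4 and 6 lay in the upper part of their slides. Outside 8 generations, the labels inverted the dyes on 0 of 11 arrays in that part. Arrays 1 and 6 were thus the only 2 inverted among 14, against 9 of 13 in the lower part. Whether the dye labels of arrays 1 and 6 are right was not tested, and array 6 was kept as labelled. In the authors' deposited table, the column of array 1 matched the scanner values of array 3 (r = 0.953) and the column of array 3 those of array 1 (0.87), so there it is the column of array 3 that ran against those of arrays 1, 2 and 4 (-0.569, -0.648 and -0.681). Values are therefore given without array 1, and for counts of calls and some genes also with all arrays as labelled or with array 1 turned.

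The arrays also differed in quality and spread. The SD of log2 over genes was 0.323, 0.514, 0.442, 0.35, 0.722 and 0.897 on arrays 1 to 6, against 0.154 to 0.233 on the 1-generation arrays. Median spot intensity was 507 to 1958.5 in the red channel and 260 to 2020.5 in the green one. Arrays 5 and 6 were above background in both channels for 81.8% and 81.1% of genes, against 97.1% to 98.2% on the other four. The 8-generation arrays and 18-20-generation array 7 had spots of 80 or 90 µm across, under those of all other arrays, so the set of arrays and the age can be told apart only through that 1 array. The labels do not say whether the arrays came from separate cultures, and p-values measure the spread between arrays, which may in part be technical. Their number limits the precision.

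In these arrays the mother cells of 8 generations differed from young cells by modest amounts. Of 5865 genes tested without array 1, 395 changed (6.73% of all), 267 upward (4.55%) and 128 downward (2.18%), at an adjusted p under 0.05 in limma, and 36 of them by more than 2-fold. At an unadjusted p under 0.05 there were 1290 genes (22%). As labelled, the 6 arrays gave 0 genes in limma, 748 (12.8%) having an unadjusted p under 0.05, and the adjusted p began at 0.0716. With array 1 turned, 9.07% of genes changed, 322 upward (5.49%) and 210 downward (3.58%), and 373 genes were called both in this way and without the array. Among list members named below as called, PHB1, SKP1, MCM7, RMI1 and TRX1 did not pass with array 1 turned (adjusted p from 0.0512 to 0.0696 in limma). On array 1 as labelled, 236 of 261 genes called as rises and 120 of 126 called as falls had the opposite sign, against 4075 of 5754 of all genes (70.8%). The calls rest on the model shared with the other ages. A fit of the 8-generation arrays 2 to 6 alone gave 0 genes in limma, where 709 had an unadjusted p under 0.05 and the adjusted p began at 0.341. In the other calls, the spread and the dye effect of each gene were estimated over all ages. Each SE and adjusted p below rests on that shared spread, and not on the spread of the 8-generation arrays alone.

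Among the largest rises, GPG1, a partner of the G-protein alpha subunit Gpa2 in glucose sensing, read 1.65, 1.29, 1.08, 1.13 and 0.90 on arrays 2 to 6 and -1.38 on array 1. Its values lay close together on the 5 arrays, all of them above those of the 1-generation arrays, which ran from -0.11 to 0.30. The fitted mean log2 of the 5 arrays was 1.23 ± 0.204 (SE from the spread shared over all ages), a 2.34-fold rise (adjusted p = 0.000949). It was 1.24 with array 1 turned (adjusted p = 0.000181). With the array set as a block GPG1 was at 0.29 and did not pass (adjusted p = 0.451). DAD4, a subunit of the DASH complex that holds kinetochores to microtubules, read 0.84, 0.94, 0.53, 2.33 and 2.76 on arrays 2 to 6 and -0.51 on array 1. Arrays 5 and 6 were the high ones, and all 5 arrays were above the 1-generation range of -0.36 to 0.32. DAD4 rose 2.79-fold (log2 1.48 ± 0.268 SE, adjusted p = 0.00199). It rose by 1.32 with array 1 turned (adjusted p = 0.00193).

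ECM7, a membrane protein tied to calcium uptake, read 1.15, 0.72, 0.54, 1.50 and 1.81 on arrays 2 to 6 and -0.78 on array 1. It was highest on arrays 5 and 6, and rose 2.21-fold (log2 1.15 ± 0.166 SE, adjusted p = 0.000346). RIB5, riboflavin synthase, read 0.39, 0.36, 0.11, 2.24 and 2.63 on the same 5 arrays, so its 2.22-fold rise (log2 1.15 ± 0.239 SE, adjusted p = 0.00526) came mostly from arrays 5 and 6. TIM9, a small chaperone of the mitochondrial intermembrane space, read 0.64, 0.70, 0.71, 0.86 and 2.88, and CTL1, an RNA triphosphatase, 0.99, 0.53, 0.41, 1.03 and 2.67, with array 6 the high one for both. TIM9 rose 2.16-fold (adjusted p = 0.0144) and was at 0.73 without array 6, no longer passing (adjusted p = 0.0972). The other 4 of the 10 largest rises were YIG1 (2.75-fold, measured on 4 of the 5 arrays, adjusted p = 0.0459), YGR153W (2.39-fold), YOR289W (2.29-fold) and PGA2 (2.21-fold), an essential protein of the secretory pathway. The call of YIG1 was lost without array 2, 3 or 4 and without any 1 of the 7 1-generation arrays. It held in 21 of 47 alternatives.

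The largest falls were smaller than the largest rises among genes that at least 4 of the 5 arrays measured. BNA3, the kynurenine aminotransferase, read -1.29, -1.32, -0.77, -0.66 and -0.62 on arrays 2 to 6 and 0.63 on array 1, and fell 1.89-fold (log2 -0.92 ± 0.149 SE, adjusted p = 0.000804). ERG13, the HMG-CoA synthase of sterol synthesis, read -0.86, -0.80, -0.59, -0.71 and -1.86 on these arrays and 0.78 on array 1. Array 6 was the low one, and ERG13 fell 1.94-fold (log2 -0.96 ± 0.185 SE, adjusted p = 0.00402). MHT1, which recycles S-methylmethionine to methionine, was measured on 4 of the 5 arrays and fell 1.96-fold (log2 -0.97 ± 0.19 SE, adjusted p = 0.004). On array 1 it stood at -0.02. It was the 1 gene of these 20 that did not turn its sign on array 1.

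ADR1, the transcription factor of ADH2 and of peroxisomal genes, read -0.68, -0.71, -0.52, -1.29 and -0.68 on arrays 2 to 6 and 0.24 on array 1, with array 5 the low one. It fell 1.7-fold (log2 -0.76 ± 0.143 SE, adjusted p = 0.00303). IRA2, the GTPase activator that turns Ras off, fell 1.68-fold (log2 -0.75 ± 0.197 SE, adjusted p = 0.0227), and its call was lost without array 2, 3 or 6. Blocking on the array set put it at -0.18 (adjusted p = 0.732), and it was at -0.56 with the length trend taken out (adjusted p = 0.166). The other 5 were PFK27 (1.77-fold), a kinase that makes the glycolytic activator fructose 2,6-bisphosphate, YHR033W (1.71-fold), GYP6 (1.66-fold), which activates GTP hydrolysis by Ypt6, ACS2 (1.65-fold), an acetyl-CoA synthetase, and YEA6 (1.63-fold), a mitochondrial NAD carrier. YHR033W was no longer called without any 1 of arrays 2 to 6 or any 1 of the 7 1-generation arrays, and held in 26 of 47 alternatives. With array 6 turned, which was tried only once its low correlations had been seen, 1 of these 20 genes was still called (BNA3), and with array 3 turned 0 were. With the array set as a block 10 of the 20 still passed, and those that did not were YIG1, YGR153W (0.69), GPG1, RIB5 (0.79), ECM7 (0.77), TIM9, CTL1 (0.69), ERG13 (-0.51), IRA2 and ACS2. One sign on each of arrays 2 to 6, which these 20 genes had to show where measured, was shared by 362 genes above 0 (7.04%) and 369 below (7.18%) among 5141 measured on all 5. With array 1 turned, 329 (6.45%) and 323 (6.33%) of 5101 kept 1 sign over 6 arrays, against 30 (0.588%) and 43 (0.843%) as labelled.

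**Figure D1:**
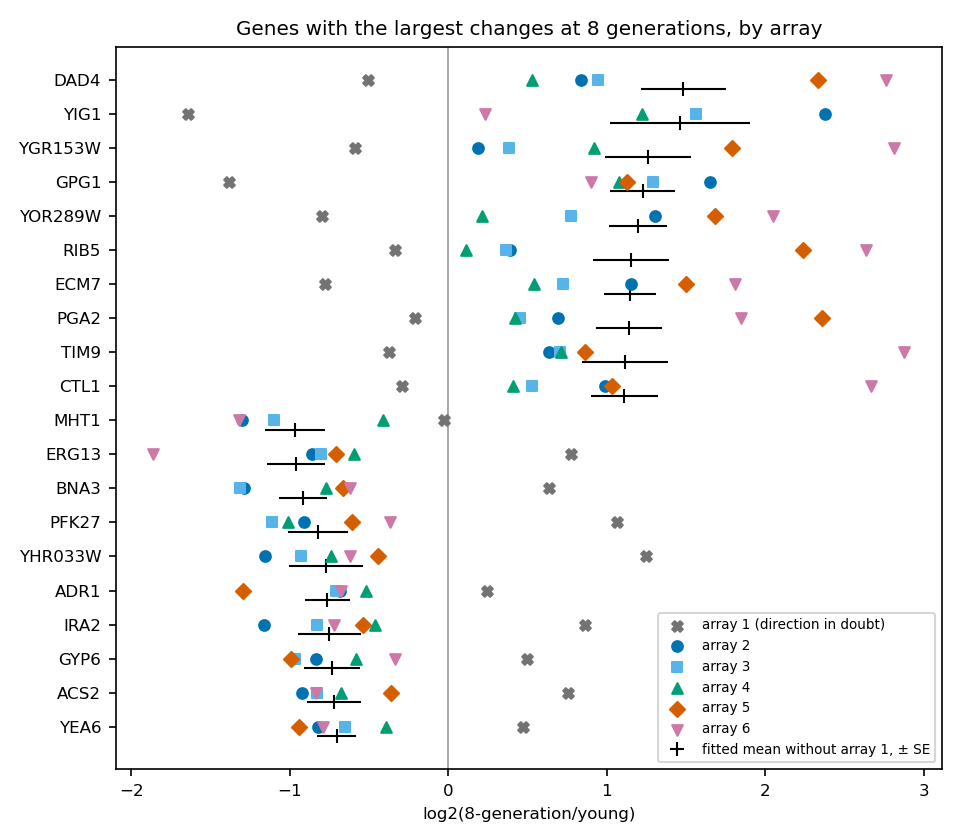
Log2 (8-generation over young) on each 8-generation array for the 10 largest rises and the 10 largest falls without array 1, array 1 drawn apart as labelled. Arrays 2 to 6 lie on 1 side of 0 for each gene, array 1 lies on the other side for all of them but MHT1, and arrays 5 and 6 set the high end of DAD4, RIB5 and PGA2.

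Young cells set against young cells give the background of the assay, but on another set of arrays. Spots were 110 or 120 µm across on the 1-generation arrays and 80 or 90 µm on the 8-generation arrays. A difference between these 2 ages can be told from one of array set only through 18-20-generation array 7. Of the 20 genes above, 17 were measured on all 12 arrays, and in 14 of these the 5 arrays of 8 generations did not overlap the 7 arrays of 1 generation. Over all 4584 genes measured so, 116 (2.53%) lay wholly above and 92 (2.01%) wholly below. The genes were chosen on the same 8-generation values. Fewer genes passed the test of the difference between the ages, whose SE also holds the uncertainty of the 1-generation mean. Without array 1, 2 of 5865 genes passed it (0.0341%), both upward, with 556 genes at an unadjusted p under 0.05 (9.48%). As labelled, 0 passed (257 unadjusted, 4.38%). The cause of the drop was not tested.

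The 2 genes were ATG45, a receptor for the autophagy of glycogen, and IRC18, a gene of unknown role whose loss raises the number of recombination foci. ATG45 read 1.04, 0.97, 0.76, 1.20 and 1.17 on arrays 2 to 6 of 8 generations and -0.86 on array 1, and from -0.06 to 0.27 on the 1-generation arrays. Arrays 2 to 6 lay close together, and the rise was 2.05-fold over young cells (log2 1.04 ± 0.115 SE, adjusted p = 9.03e-06), and 0.94 ± 0.158 above 1 generation (adjusted p = 0.0121). IRC18 read 0.67, 0.35, 1.03, 0.84 and 0.89 on arrays 2 to 6 and -0.80 on array 1, and from -0.21 to 0.30 at 1 generation. Its rise was 1.76-fold over young cells (log2 0.82 ± 0.11 SE, adjusted p = 0.000122) and 0.87 ± 0.151 above 1 generation (adjusted p = 0.0121). Without 1-generation array 2 no gene passed this difference, and without 8-generation array 4 there were 22. GPG1 was 1.20 and DAD4 1.39 above 1 generation, neither of them passing (adjusted p = 0.116 and 0.131).

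**Figure D2:**
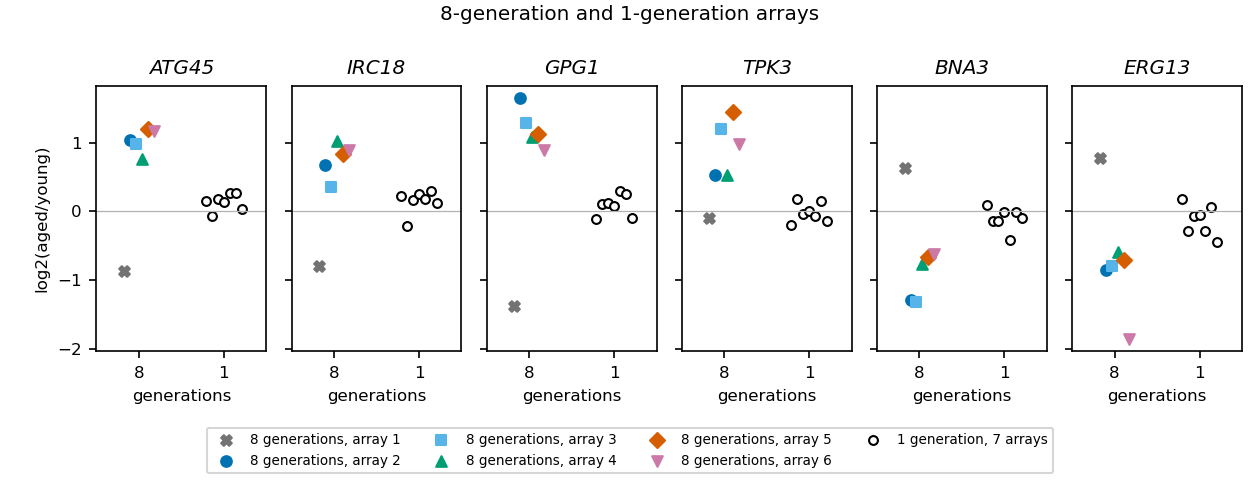
Log2 against young cells for 6 genes, with 8-generation arrays 2 to 6 and array 1 marked apart on the left of each panel and the 7 arrays of 1 generation on the right. The ATG45, IRC18, GPG1, TPK3, BNA3 and ERG13 values of arrays 2 to 6 do not overlap those of 1 generation, and array 1 lies opposite to arrays 2 to 6.

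The genes of lowest p over all 6 arrays as labelled were TPK3, which encodes a catalytic subunit of protein kinase A, IBD2, a gene of the spindle checkpoint, and ATX2, a manganese transporter of the Golgi. TPK3 read 0.53, 1.19, 0.53, 1.45 and 0.99 on arrays 2 to 6, and on array 1 it was near 0 (-0.10) where most rises were clearly below it. Its log2 was 0.93 ± 0.15 without array 1 (adjusted p = 0.000804) and 0.76 ± 0.157 with it as labelled (adjusted p = 0.0716). IBD2 was at 0.78 and ATX2 at 0.86 without array 1 (adjusted p = 0.000949 for each), with array 1 at -0.26 and -0.15.

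Mitochondrial ribosome genes, which make the machinery that translates the mitochondrial genome, had the most calls by number of the 53 gene lists. Of 78 measured, 13 rose (16.7%) and 0 fell, beside 4.55% and 2.18% of all genes. By share the a cell list, of 7 genes, was higher (57.1%). Of the 78 genes, 71 lay above 0, and the median log2 was 0.28 against -0.01 over all genes. The array medians were 0.29, 0.32, 0.34, -0.03 and 0.47 on arrays 2 to 6, so array 5 did not share the shift, and -0.27 on array 1. MRPL32 rose most (0.98 ± 0.24 SE, adjusted p = 0.0144), and MRPL37 (0.96), MRPS17 (0.95) and RSM19 (0.87) rose with it. With array 1 turned 21 rose, and without array 6 there were 4. These genes are short, with a median of 679.5 bases against 1245 over all genes, and with the trend over gene length taken out of each array 4 rose and the median was 0.20.

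Of 28 genes of mitochondrial protein import, 4 rose (14.3%, beside 4.55% of all genes) and 1 fell (3.57%, beside 2.18%), with a median of 0.06. Without array 3 or array 6 there were 2 rises, and with the length trend taken out 1. TOM6, a small subunit of the outer membrane translocase, read 0.72, 0.80, 0.54, 1.81 and 1.07 on arrays 2 to 6 and -0.42 on array 1, and rose 1.00 ± 0.168 (adjusted p = 0.000949). The prohibitin PHB1 (1.10, adjusted p = 0.0469) and the Hsp70 exchange factor MGE1 (0.68) rose beside TIM9, whereas TOM40, the pore of the same translocase as TOM6, fell (-0.42, adjusted p = 0.0282). Respiratory chain and ATP synthase genes had 0 of 36 called and a median of 0.05, and the tricarboxylic acid cycle 0 of 16 and -0.12.

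Of 99 genes of cytosolic ribosomal proteins, 5 rose and 0 fell (median 0.08), a share of 5.05% near the 4.55% of all genes, among them RPL23B (1.10, adjusted p = 0.0142) and RPS10B (0.81). Many of these genes have a near-identical copy, with which their probes may share signal. The list's array medians were 0.20, 0.28, 0.36, -0.48 and 0.20 on arrays 2 to 6, array 5 alone lying low. Ribosome assembly had 4 rises (3.88%) and 1 fall (0.971%) in 103 genes, below the 4.55% and 2.18% of all genes, with UTP9 (0.88), SSF2, RRP36 and SPB1 upward and the large assembly ATPase REA1 downward (-0.53). Translation factors had 0 rises and 2 falls in 31 genes (6.45%, beside 2.18% of all genes) and a median of -0.23. CAM1, a subunit of elongation factor eEF1B, fell by 0.59 (adjusted p = 0.00402), and the poly(A)-binding protein PAB1 fell by 0.49. Cytosolic tRNA synthetases had 2 falls in 19 genes (10.5%, GUS1 and DPS1, median -0.22). The proteasome had 2 rises in 36 genes (5.56%, near the share of all genes), RPN8 (1.03, adjusted p = 0.0296) and RPN7 (0.80, adjusted p = 0.00404), which encode subunits of its lid, and a median of 0.19.

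Carbon metabolism divided the arrays. In glycolysis, 15 of 16 genes lay below 0 and 1 fell (6.25%, beside 2.18% of all genes), with a median of -0.38. The array medians were -0.09, -0.20, -0.11, -0.30 and -0.87 on arrays 2 to 6, array 6 being the low one, and 0.13 on array 1. These medians averaged -0.32 ± 0.32 (SD, n = 5), and with array 6 turned the median of the list was -0.01. The pyruvate kinase CDC19 was the gene that passed (log2 -1.62 ± 0.303 SE, adjusted p = 0.004), but of the 5 arrays it was measured on 5 (-0.71) and 6 (-2.53) alone. GPM1, the phosphoglycerate mutase, was at -0.77 and did not pass (adjusted p = 0.0745). In trehalose and glycogen metabolism, 2 of 17 genes fell (11.8%, beside 2.18% of all genes), the trehalase NTH2 (-0.69, adjusted p = 0.0107) and the trehalose phosphate synthase TPS1 (-0.66, adjusted p = 0.0414). The list's median was -0.33, with array 6 again lowest at -0.84, and without array 6 neither gene passed.

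Genes used on non-fermentable carbon were high on 3 arrays and not on the others. ADH2, the alcohol dehydrogenase that consumes ethanol, read 2.12, 1.83 and 1.65 on arrays 2, 3 and 4, -0.67 and -1.01 on arrays 5 and 6, and -2.03 on array 1, and did not pass (adjusted p = 0.21). FBP1, fructose 1,6-bisphosphatase, read 1.43, 1.17, 1.66, 0.07 and -0.10 on arrays 2 to 6 and -1.56 on array 1. It did not pass without array 1 (adjusted p = 0.1) and passed with array 1 turned (adjusted p = 0.0341). The gluconeogenesis and glyoxylate list had medians of 0.96, 0.67, 0.45, -0.39 and -0.70 on arrays 2 to 6 and -0.86 on array 1. Its 1 call in 15 genes was the fall of ADR1 (6.67%, beside 2.18% of all genes). Peroxisomal beta-oxidation had 0 of 20 genes called and a median of 0.27. The acyl-CoA oxidase POX1 followed the pattern of ADH2, at 1.62, 1.53, 1.46, 0.27 and -0.66 on arrays 2 to 6 and -1.49 on array 1. Stationary phase markers spread over the arrays too, with array medians between -1.06 and 0.76 on arrays 2 to 6 and -1.12 on array 1, and 0 of 7 called. Their part in the carbon metabolism values was not tested.

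Of 22 heat shock and chaperone genes, 2 fell (9.09%, beside 2.18% of all genes), the Hsp40 protein SIS1 (-0.64, adjusted p = 0.0422) and the constitutive Hsp90 HSC82 (-0.51, adjusted p = 0.0223). The median was -0.35, with array medians of 0.07, -0.09, -0.23, -0.65 and -0.40 on arrays 2 to 6, and it was 0.04 without array 5. Neither gene passed without array 6 or with the length trend taken out. HSP104, the disaggregase, read -0.14, -0.40, -0.75, -2.33 and 1.53 on arrays 2 to 6, a mean over 17 repeat spots on each array, and did not pass (log2 -0.45 ± 0.305 SE, adjusted p = 0.422). Arrays 5 and 6 gave it opposite values. For the 12 genes spotted 17 times, the SD between spots of 1 array had a median of 0.22, and the SD between arrays 2 to 6 one of 0.509. By these medians the spread between arrays exceeded that between spots, whose SD ran from 0.083 to 0.86.

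In sulfate assimilation and methionine metabolism, 3 of 29 genes fell (10.3%, beside 2.18% of all genes) and 0 rose (4.55% of all genes). Without array 3, 4 or 6, 1 fell. MHT1 and MMP1, its neighbour in the pathway that takes up S-methylmethionine (-0.83, adjusted p = 0.0311), fell together with the S-adenosylmethionine synthetase SAM2 (-0.69, adjusted p = 0.04). The median was -0.30 and the array medians were -0.16, -0.19, -0.41, -0.04 and -0.34 on arrays 2 to 6, and 0.33 on array 1. The median of amino acid synthesis genes was -0.15, with 1 rise (HIS1) and 1 fall (ILV2) in 57 (1.75% each, under the shares of all genes). Ergosterol synthesis had 2 falls in 27 genes (7.41%), ERG13 and the C-4 methyl sterol oxidase ERG25 (-0.51, adjusted p = 0.0431). NAD synthesis had 1 fall in 20 genes (5%), BNA3.

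Of 28 Ras, protein kinase A and TOR genes, 3 rose (10.7%, beside 4.55% of all genes) and 3 fell (10.7%, beside 2.18%), and the median was -0.07. The rises were GPG1, TPK3 and TAP42, a regulator of phosphatases under TOR (0.78, adjusted p = 0.0223). The falls were IRA2, CDC25, the exchange factor that turns Ras on (-0.60, adjusted p = 0.0343), and SCH9, a kinase under TORC1 (-0.55, adjusted p = 0.013). The Ras genes themselves did not pass, at 0.04 for RAS1 and -0.19 for RAS2 (adjusted p = 0.935 and 0.713).

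Genes of chromosome segregation and replication were also called in both directions. Of 36 DASH and kinetochore genes, 4 rose (11.1%, beside 4.55% of all genes), DAD4, SKP1 (0.78), DUO1 (0.49) and NKP1 (0.48), and CTF19 fell (-0.54, adjusted p = 0.00526), with a median of 0.09. Without array 5, or with the length trend taken out, 1 of these genes rose, and without array 2 or array 6 there were 2. In the spindle checkpoint list, IBD2, MAD2 (0.52) and CDH1 (0.55) rose and the Bub1 partner BUB3 (-0.44) and the kinase MPS1 (-0.52) fell. Among its 30 genes these were 10% and 6.67%, beside 4.55% and 2.18% of all genes. In DNA replication, 3 of 41 genes rose and 3 fell (7.32% each, beside 4.55% and 2.18% of all genes). The rises were the primase subunit PRI2 (0.99, adjusted p = 0.00419), the replication protein A subunit RFA3 (0.86, adjusted p = 0.00419) and the GINS subunit PSF3 (0.69). The others, which fell, were subunits of the MCM helicase, MCM3 (-0.52), MCM7 (-0.47) and MCM4 (-0.39).

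Marker genes of the 2 mating types differed in brightness, and the mating type of the cells was not tested. Alpha cell markers were above background in both channels on all 27 arrays for MF(ALPHA)1, STE3, SAG1 and AFB1 and on 26 for MF(ALPHA)2. The markers of a cells were dimmer, above background on 10 arrays for STE6 up to 20 for STE2. Of the 7 a cell genes, 4 rose (57.1%, beside 4.55% of all genes) and 0 fell, with a median of 0.50, and all 7 lay above 0. Of the 4, MFA1, BAR1 and AGA2 were above background on 3 of the 6 8-generation arrays, and MFA2 on 4. STE6, the 1 gene of the list above background on all 6, was at 0.22 and did not pass (adjusted p = 0.489). MFA1, which encodes the a-factor pheromone, read 1.15, 0.69, 1.22 and 0.08 on arrays 2 to 5 and was not measured on arrays 1 and 6, and rose 1.72-fold (adjusted p = 0.0122). MFA2, its second gene, rose by 0.65 (adjusted p = 0.00909). AGA2, an agglutinin subunit, rose by 0.62 (adjusted p = 0.0282) and was measured on arrays 2, 3 and 4 of the 5. The protease BAR1, measured on arrays 2, 5 and 6, rose by 0.50 (adjusted p = 0.0365). With the length trend taken out, 1 of these genes was called, and without array 2 there were 2. Of the 5 alpha cell genes, AFB1 rose (0.91, adjusted p = 0.0096), led by 2.56 on array 4, and the median was -0.11. Haploid, daughter and meiotic markers gave 0 calls in 9 genes each, with medians of -0.01, 0.07 and 0.27.

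Of 24 silencing and ageing genes, 1 fell (4.17%, beside 2.18% of all genes) and 0 rose (beside 4.55%), with a median of -0.03. The fall was that of RAP1 (-0.56, adjusted p = 0.0304), the factor that binds telomere repeats and ribosomal protein promoters. SIR2, the histone deacetylase of silencing, read -0.44, -0.49, -0.30, 0.17 and -0.91 on arrays 2 to 6 and 0.04 on array 1. Array 5 went against the others, and SIR2 did not pass (log2 -0.38 ± 0.123 SE, adjusted p = 0.0578), but passed without array 5 (-0.53, adjusted p = 0.0147). FOB1, which blocks replication forks in the ribosomal DNA, read -0.13, -0.12, 0.15, 1.34 and 1.76 on these arrays, high on arrays 5 and 6 alone, and did not pass (0.59 ± 0.191 SE, adjusted p = 0.063). It passed without array 2 (0.78, adjusted p = 0.022) or array 3 (0.78, adjusted p = 0.0223). LAG1, a ceramide synthase named for its part in longevity, was at -0.11 (adjusted p = 0.779).

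The changes followed gene length. The genes that rose had a median length of 655.5 bases, those that fell 2007 and all genes 1245. Of 122 genes up to 300 bases, 15.6% rose and 0 fell, whereas of 851 genes over 2400 bases 1.06% rose and 5.29% fell. Spearman's rho of log2 and length was -0.121, -0.106, -0.159, -0.223 and -0.22 on arrays 2 to 6 and 0.195 on array 1, and from -0.0528 to 0.0245 on the 1-generation arrays. DAD4, TIM9 and TOM6, at 219, 264 and 186 bases, are among the short genes, and IRA2, at 9240 bases, is one of the long ones. With the trend taken out of each array, a step added once the trend had been seen, 258 genes changed, 168 upward and 90 downward, and 215 of these were called without it too. TIM9 (0.86, adjusted p = 0.0513) and IRA2 did not pass with the trend taken out, while the other 18 of the 20 largest changes did. Lengths are those of the genes in the RefSeq annotation of the reference strain S288C.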

How the data were processed

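Each array compared aged with young RNA in 2 colours, from RNA amplified off a T7 promoter and coupled to dye, per the labels' protocols. Per the file headers, the scanner files give each spot's median intensity and local background in red and green, neither corrected nor normalized, and the percent of its pixels above background plus 2 SD. The authors' deposited table holds log ratios read here as log2 after comparison with the scanner values. Its column medians at 8 generations ran from -0.0625 to 0.0149, and its normalization and centring are not given in the sources used here. It served as an alternative.

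R 4.3.3 with limma 3.58.1 corrected background by normexp (offset 50), normalized each array by loess (span 0.3), left out marked spots (227 to 770 of 6580 on the 8-generation arrays) and turned ratios to aged over young by the dye labels. Genes with a value on at least 3 arrays of every age, array 1 included, were tested (5865). Without array 1 a gene such as CDC19 could therefore rest on fewer. One linear model held 4 age means and 1 dye term over 27 arrays, or 26 without array 1, with empirical Bayes, two-sided tests against 0 and Benjamini-Hochberg adjustment at 0.05. The 8-minus-1-generation difference came from the same model. The median SE of a log2 change without array 1 was 0.179. Above background means over 50% of pixels above background plus 2 SD. Names came from the RefSeq table (assembly R64), in which 5849 of 6388 systematic names matched, and probes listing several genes (296) were tested but not named.

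Named are the 10 largest rises and falls without array 1 that were measured on at least 4 of the 5 arrays with 1 sign, the 3 genes of lowest p as labelled, genes past the difference from 1 generation, called or leading members of the lists described, and a few ageing genes. Members, lists and tests were chosen with earlier results of these data known. Spread, dye and scaling alternatives, arrays left out, a replicate block and the array set as a block were tried. The tests were run on simulated data with independent noise and, for each gene, the same spread on every array. That run could not show what the unequal spread of the real arrays does to the calls.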

Additional observations from a re-analysis of the deposited data

Results flagged for a closer look

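A gap of 1 array from the rest was looked for in 44 groups of values. Chance gives such a gap in about 1 in 20 groups only for independent normal values of equal spread. That rate does not hold here, because the SD of log2 was 0.722 and 0.897 on arrays 5 and 6 and 0.35 to 0.514 on arrays 2 to 4. Many of the genes were also chosen on these same values. Among arrays 2 to 6, TIM9 (2.88) and CTL1 (2.67) on array 6 stood above the other arrays, and ERG13 on array 6 (-1.86) and ADR1 on array 5 (-1.29) below them. The median of glycolysis was low on array 6 (-0.87) and that of cytosolic ribosomal proteins low on array 5 (-0.48). The rank correlation of log2 with gene length on array 1 (0.195) lay apart from the negative values of the other 5 arrays. The difference between 8 generations and 1 generation passed its own test for ATG45 (0.94) and IRC18 (0.87), higher at 8 generations on 5 of 5 arrays without array 1.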

How the results depend on the processing

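The count of changed genes without array 1 (395) was 0 with array 3 turned, 129 with array 6 turned (45 upward, 84 downward), 0 for the 8-generation arrays alone with or without a dye term, 0 in the authors' deposited table, 195 with median centring (154 upward, 41 downward), 2213 with array weights and 258 with the length trend taken out. For the authors' deposited table, this fit left out column 1 and kept column 3, which matched the scanner values of array 1. With column 3 left out instead, 16 of the 19 largest changes held in that table passed. Leaving out 1 array gave 236 (without array 6) to 484. The replicate block is given below, and the remaining alternatives gave 269 to 591. Among these was the array set as a block (493, with 237 upward and 256 downward), under which 10 of the 20 largest changes still passed. The 6 arrays as labelled (0 upward, 0 downward) gave 322 upward and 210 downward with array 1 turned, 1 upward with print-tip loess, 2 and 2 with arrays scaled, 745 and 695 with array weights, and 143 and 194 with the array set as a block. Leaving out 1 array gave 0 to 267 upward and 0 to 128 downward, the most without array 1, with 1 upward without array 2, and 25 upward and 1 downward without array 4.

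For 8 minus 1 generation without array 1 (2 genes), the count was 0 with array 3 or array 6 turned, median centring, the authors' deposited table or the length trend taken out, 4 in that table without its column 3, 14 without the dye term, 4 without background correction, 5 with print-tip loess, 123 with scaling, 1217 with array weights, 346 with the set block and 0 to 22 with 1 array left out. It was 1 without array 5, and 4 without array 2, array 6 or 18-20-generation array 7. As labelled (0) it was 2 with array 1 turned, 1 with scaling, 575 with weights, 308 with the set block and 0 to 2 with 1 array left out. The cause of these shifts was not tested.

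Same-numbered arrays of different ages did not deviate together (r from -0.244 to 0.186, over 0.1 in 5 of 18 pairs). With the replicate number as a block, 219 genes changed without array 1 (157 upward, 62 downward), 9 as labelled, all upward, and 0 in the difference from 1 generation. Array 6 turned, the length trend, arrays 2 and 3 averaged, the position on the slide as a term and the authors' table without column 3 were chosen after seeing the data. Of the named genes that had not passed, some passed or changed sign. FOB1 passed with print-tip loess (0.65), arrays 2 and 3 averaged (0.78) and without array 2 or 3. HSP104 passed with array weights (-0.47) and array 6 turned (-1.01), LAG1 with the same (-0.58 and -0.61) and RAS1 with array weights (0.45). SIR2 passed with array weights (-0.45), slide position (-0.39) and without 8-generation array 5, 12-generation array 2 or 18-20-generation array 7. Sign changes did not pass. FOB1 was at -0.0761 with array weights and -0.0855 with array 6 turned. HSP104 was at -0.90 (without array 6) to 0.046 (without array 5) with 1 array left out. RAS1 was at -0.25 with array 3 turned, -0.14 with print-tip loess, -0.0704 with the replicate block, -0.0784 in the authors' deposited table, -0.0729 with arrays 2 and 3 averaged, and -0.13 (without array 3) to 0.32 with 1 array left out. RAS2 was at 0.0188 with print-tip loess, 0.55 with the set block and 0.14 with array 6 turned. LAG1 was at 0.18 with array 3 turned, 0.21 with the set block, 0.11 in the authors' deposited table, 0.0403 with arrays 2 and 3 averaged, and -0.45 to 0.0415 (without array 2) with 1 array left out. On arrays 5 and 6, 81.8% and 81.1% of genes were above background in both channels.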

Other observations

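Some further lists, those given here with calls, had from 2 to 4 called genes. Called members of the lists not described are not named. Of 40 cell wall genes, CRH1 (0.74, adjusted p = 0.0223) and UTR2 (0.65, adjusted p = 0.00161), a pair of enzymes that link chitin to glucan, rose, and the kinase of wall integrity, PKC1, fell (-0.52, adjusted p = 0.00648), shares of 5% and 2.5% near those of all genes (4.55% and 2.18%). In meiosis and sporulation, 3 of 52 genes rose (5.77%, near the 4.55% of all genes) and 0 fell, the spore wall gene OSW2 (0.91, adjusted p = 0.000701), the sporulation septin SPR3 (0.73, adjusted p = 0.00161) and SPS4 (0.82), and the median was 0.20. Of 28 iron regulon genes, the ferroxidase FET3 (-0.82, adjusted p = 0.0471) and the mRNA decay factor CTH1 (-0.66) fell (7.14%, beside 2.18% of all genes). Among 20 genes of metal homeostasis other than iron, the manganese transporter SMF1 (0.56) rose beside ATX2 (10%, beside 4.55% of all genes). The vacuolar copper transporter CTR2 fell (-0.55), a share of 5% beside 2.18% of all genes. In autophagy, the kinase ATG1 (-0.62) and ATG16 (-0.60) fell, among 27 genes (7.41%, beside 2.18% of all genes).

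In the DNA damage list, the DNA glycosylase MAG1 (0.85, adjusted p = 0.017), RMI1 (0.64) and HUG1 (0.51) rose (11.1%, beside 4.55% of all genes) and 0 of 27 genes fell, with a median of 0.01. Thioredoxin TRX1 (0.87), the methionine sulfoxide reductase MXR2 (0.60) and the glutaredoxin GRX5 (0.55) rose, and GSH1, which starts glutathione synthesis, fell (-0.51), among 32 genes of oxidative stress (9.38% and 3.12%). Of 54 stress response genes, 0 rose and 2 fell (3.7%, beside 2.18% of all genes), TPS1 and the aldose reductase GRE3 (-0.39), with a median of -0.16. In all, 39 of the 53 lists had at least 1 called gene without array 1. With 6.73% of all genes called in either direction, a long list is apt to hold at least 1, so this count says little about the lists. The other 14 had none, among them nuclear pore genes (0 of 33, median -0.14), histones (0 of 9) and the actin patch (0 of 33).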
